A study of Homo sapiens with 12 samples.

Results

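Amino acid transporter genes were examined in TIGK cells, human gingival keratinocytes made immortal by telomerase (hTERT), that were grown with or without added L-arginine (Arg). The members are the protein-coding genes of the count table whose symbols belong to the solute carrier families SLC1A, SLC3A, SLC7A, SLC36A, SLC38A and SLC43A. There are 40 of them among the 58735 genes of the table. SLC7A1, SLC7A2, SLC7A6 and SLC7A7, which carry arginine and other cationic amino acids, were set against the 36 others. All cells were kept at 48 mM glucose in DMEM-SILAC Flex, a base medium that by the study's methods holds no Arg, with lysine, glutamine, pituitary extract and growth factors added. The 4 groups were untreated control and 500 μM Arg, each at 24 h and at 48 h, with 3 libraries per group (replicates A, B and C). The cells come from a single immortalized line, and nothing in the labels says that the replicates came from separate passages, so the p-values below measure the spread between these libraries.

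Arginine enters mammalian cells mainly through carriers of the SLC7 family. The CAT proteins SLC7A1 and SLC7A2 work alone as uniporters of cationic amino acids. SLC7A6 and SLC7A7 are light chains of the y+L system: they exchange cationic amino acids for neutral amino acids and sodium, and they reach the plasma membrane only when bound to the heavy chain SLC3A2 (CD98hc, 4F2hc). The same heavy chain carries the light chains SLC7A5 (LAT1) and SLC7A8 (LAT2), which exchange large neutral amino acids, and SLC7A11 (xCT), which exports glutamate for cystine. Several SLC38 and SLC1 carriers bring in glutamine, alanine, serine and acidic amino acids with sodium. SLC36A1 and SLC36A2 move small amino acids with protons, and SLC43A1 and SLC43A2 facilitate the passage of large neutral amino acids. Several of these genes are known targets of the amino acid response, in which the transcription factor ATF4 binds a short CARE element (C/EBP-ATF response element) when amino acids are scarce.

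The libraries held between 16542243 and 19040964 gene counts. Keratinocyte markers (KRT5, KRT14 and 6 others) summed to between 42695 and 54601 CPM, counts scaled to the library size, in every library. The summed fibroblast markers, mostly counts of DCN and COL1A1, lay between 29.6 and 102 CPM. The endothelial, immune and melanocyte markers each stayed at or below 3.99 CPM. The share of mitochondrially encoded counts was between 1.20% and 1.30% in the 24 h controls and between 0.624% and 0.802% in the 24 h Arg libraries. The library labelled control replicate B at 48 h stood apart, with 1.55% against 0.906% and 0.707% in replicates A and C, and 1.14% to 1.31% in the 48 h Arg libraries. In that library 63.8% of all tested genes were nearer to the 48 h Arg mean than to the mean of the other controls, against 36.8% for replicate A and 36.7% for replicate C. For the transporter genes the corresponding numbers were 19 of 25 for replicate B, 3 of 25 for replicate A and 6 of 25 for replicate C. The changes with Arg at 48 h are given also without this library where a call or a value turns on it. The library was singled out partly by its nearness to the Arg libraries. Leaving it out therefore tends to enlarge differences from Arg and to lower p-values. Over all genes, 0.117% were called with all libraries and 15.9% without it. The 48 h p-values without it describe that fit only.

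The promoters of the transporter genes were searched for the CARE core, TGATGNAAN, on both strands. The RefSeq promoter table (GRCh38.p14, 250 bases before to 50 after each start) matched 31 of the 40 symbols with 53 promoters. A match was found in 6 of these genes, 19.4% of those matched, against 4.45% of all 27305 genes in the table. By promoter, the core was present in 11.3% of the members' promoters and in 3.61% of all 35116. The stretches with a match are printed 5′ to 3′ on the strand that carries the core, with the core in capitals and up to 10 flanking bases on each side:
SLC7A1: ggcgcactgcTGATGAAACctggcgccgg
SLC3A2: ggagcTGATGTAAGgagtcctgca
SLC1A5: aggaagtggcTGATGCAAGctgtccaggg
SLC1A4: cggctggagaTGATGCAAAcgggagccgc
SLC38A1: cagacccgaaTGATGAAAAgggatcagct
SLC1A3: aggaaatgacTGATGCAAAgcagggttaa

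The SLC7A1 stretch lies at chr13:29595663-29595691 (minus strand), with the core beginning at base 8, counted from the first base of the RefSeq transcript as 1. In SLC3A2 it lies at chr11:62881725-62881748 on the strand opposite to the gene, with the core beginning at base 37. The SLC1A5 stretch, at chr19:46784893-46784921 (minus strand), begins its core at base −97, counted back from the start. The SLC1A4 stretch (chr2:64989381-64989409, opposite strand) and the SLC38A1 stretch (chr12:46266502-46266530, minus strand) hold it at bases −8 and −4, and that of SLC1A3 (chr5:36596358-36596386, plus strand) at base −220. These starts are those of RefSeq and can differ from the ends of the loci in the count table. A match is a string of letters in this window and no evidence of binding. A member without a printed stretch either had no match in this window or was not in the promoter table. Sequence outside the window was not searched, so such a member is not shown to lack the element.

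Of the 40 members, 26 passed edgeR's filter on low counts in at least 1 comparison. Levels between genes are compared as CPM per kb of exonic length. SLC7A5, the large neutral amino acid exchanger, was the highest in all 12 libraries, at 774 to 1288 CPM per kb. The heavy chain SLC3A2 followed at 252 to 393, the sodium-coupled glutamine and alanine carrier SLC38A2 (SNAT2) at 137 to 226, the glutamine carrier SLC1A5 (ASCT2) at 91.9 to 127.7, and SLC7A1 at 44.9 to 77.1 CPM per kb. The ranges of these 5 genes did not overlap each other. The ranges of the next in order did: SLC38A5 (25.5 to 56.7 CPM per kb), a carrier of glutamine and serine, was above SLC7A8 (24.5 to 48.2) in 6 of 12 libraries, and SLC7A8 was above SLC38A1 (31.7 to 36.8) in 8 of 12. In these bulk libraries, fewer cells expressing a gene and less RNA of it per cell cannot be told apart. SLC7A5 stood at 3.05 to 3.90 times the level of its heavy chain SLC3A2 in every library.

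**Figure D1:**
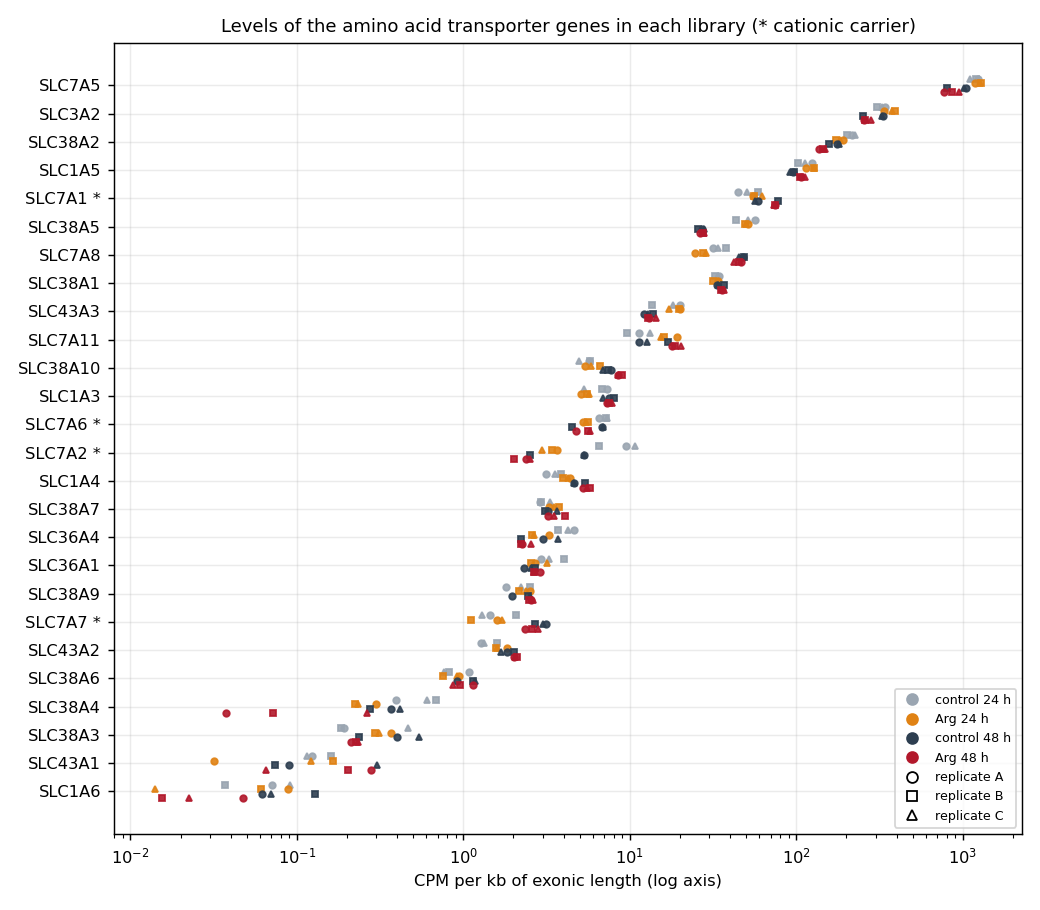
Level of each of the 26 transporter genes that passed the filter in any comparison, as CPM per kb of exonic length on a log axis, with a point for each of the 12 libraries, colour for the group and shape for the replicate; asterisks mark the cationic carriers. The genes span from SLC7A5 at 774 to 1288 CPM per kb down to SLC1A6 at 0.014 to 0.129, and SLC7A1 is the only cationic carrier among the 5 highest.

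SLC7A1 (CAT1; ENSG00000139514, chr13:29509410-29595688, minus strand), the broadly expressed cationic carrier, held most of the cationic transcript level, 72.0% to 88.8% of the 4 genes' sum per kb. Its CPM at 24 h was 345, 452 and 387 in control replicates A, B and C and 423, 427 and 482 with Arg. The control replicate B lay inside the range of the Arg libraries, and the log2 fold change of 0.17 ± 0.09 (SE) did not pass the test (adjusted p = 0.296, edgeR quasi-likelihood test with Benjamini–Hochberg adjustment). Without that control the change was 0.27 and passed (adjusted p = 0.0428), the only fit with a library left out that did. Over these fits the change ran from 0.08 to 0.27 and the adjusted p from 0.0428 to 0.742. The highest adjusted p came without control A, where the change was 0.08. At 48 h SLC7A1 measured 451, 593 and 431 CPM in the controls and 569, 573 and 568 with Arg. Controls A and C were below every Arg library and control B was above them all. With the 6 libraries the log2 fold change was 0.21 ± 0.10 (adjusted p = 0.386), and without control B it was 0.37 ± 0.05 (adjusted p = 3.71e-05).

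SLC7A2 (CAT2; ENSG00000003989, chr8:17497088-17570573, plus strand), the cationic carrier known for its induction in activated cells, was downregulated by Arg at 24 h by more than any other called member. It measured 75.0, 51.5 and 84.5 CPM in the 24 h controls and 28.9, 27.0 and 23.5 with Arg. Every Arg library lay below every control, and the level with Arg was 0.376 of the control level (log2 fold change −1.41 ± 0.14, adjusted p = 1.27e-05). The call was kept when any of the 6 libraries was left out, with changes from −1.59 to −1.26. At 48 h the controls measured 42.1, 19.8 and 42.0 CPM and the Arg libraries 18.7, 16.02 and 19.9. Control replicate B fell among the Arg libraries, and the other controls were at over 40 CPM. The log2 fold change at 48 h was −0.93 ± 0.23 with an adjusted p of 0.148, and −1.21 ± 0.10 with an adjusted p of 1.50e-08 without control B.

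SLC7A6 (y+LAT2; ENSG00000103064, chr16:68264516-68301823, plus strand) was also lower with Arg at 24 h. The controls measured 49.3, 54.8 and 55.0 CPM and the Arg libraries 39.5, 42.4 and 41.4, with no overlap (log2 fold change −0.37 ± 0.09, adjusted p = 0.0215). This call was lost without control C, Arg B or Arg C (adjusted p = 0.0963, 0.0608 and 0.0866) and in the model of all 12 libraries (0.0836). At 48 h, controls A and C measured 51.8 and 52.1 CPM, control B 34.2, and the Arg libraries 35.8, 42.8 and 43.7. The change was −0.18 ± 0.14 (adjusted p = 0.618) and, without control B, −0.35 ± 0.09 (adjusted p = 0.00709). SLC7A6 shares 17321 bases of its locus with SLC7A6OS on the opposite strand, and the counts of each (9815 and 5524 over all libraries) cannot be assigned with certainty because the strand setting is not given in the sources used here. SLC7A6OS changed by −0.21 ± 0.10 at 24 h (adjusted p = 0.233).

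SLC7A7 (y+LAT1; ENSG00000155465, chr14:22773222-22829820, minus strand), the exchanger mutated in lysinuric protein intolerance, was the lowest of the 4 and showed a time difference. With control at 24 h it measured 7.37, 10.6 and 6.66 CPM and with Arg 8.15, 5.71 and 8.76, and these ranges overlapped (−0.12 ± 0.21, adjusted p = 0.773). The 48 h values were 16.2, 13.9 and 15.4 CPM in control and 12.1, 13.3 and 14.3 with Arg (−0.20 ± 0.13, adjusted p = 0.530; −0.26 without control B, adjusted p = 0.189). All 6 of the 48 h libraries were above all 6 of the 24 h libraries. The log2 fold change from 24 to 48 h was 0.89 ± 0.18 in control (adjusted p = 0.00748) and 0.81 ± 0.16 with Arg (adjusted p = 0.00103). 

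**Figure D2:**
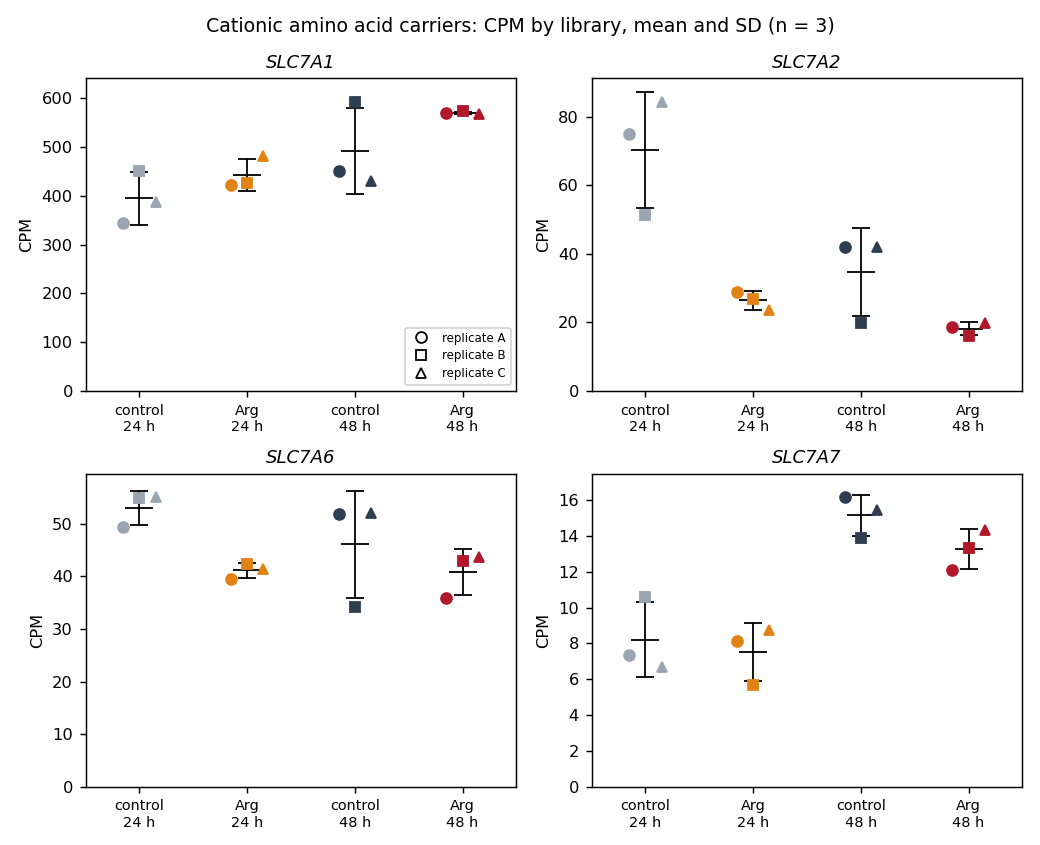
CPM of the 4 cationic carriers in each library (points, shape for the replicate), with the mean and SD of 3 libraries per group. SLC7A2 is at 51.5 to 84.5 CPM in the 24 h controls and 23.5 to 28.9 with Arg; at 48 h the square of control replicate B lies among the Arg libraries for SLC7A2 and SLC7A7, below them for SLC7A6 and above them for SLC7A1.

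The order within the cationic carriers moved with these levels. Per kb, SLC7A2 made up 15.2% and 15.4% of the cationic sum in 24 h controls A and C and 8.73% in control B, and it was 4.09% to 5.59% with Arg. At 48 h it was 7.20% and 7.45% in controls A and C, 2.88% in control B and 2.39% to 2.96% with Arg. SLC7A6 held 5.19% to 10.4% and SLC7A7 1.70% to 4.26% over the 12 libraries. The cationic carriers as a whole held 3.32% ± 0.39 (SD, n = 3) of the summed level of the transporter genes in the 24 h control, 3.15% ± 0.18 with Arg at 24 h, 4.44% ± 0.96 in the 48 h control and 5.16% ± 0.31 with Arg at 48 h. The library values overlapped between Arg and control at both times: 2.95% to 3.31% against 2.89% to 3.64% at 24 h, and 4.84% to 5.45% against 3.84% to 5.54% at 48 h, where control B held the highest share. Without the division by length, the shares were 4.91%, 4.67%, 6.40% and 7.43%.

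Among the other light chains, SLC7A11 was upregulated and SLC7A8 downregulated by Arg at 24 h. SLC7A11, the cystine/glutamate exchanger that feeds glutathione synthesis (chr4:138164097-138242349, minus strand), measured 108.9, 92.7 and 127.2 CPM in the 24 h controls and 184.7, 154.3 and 148.0 with Arg. The groups did not overlap, and the level with Arg was 1.48 times that of control (log2 fold change 0.57 ± 0.11, adjusted p = 0.00474). It was the only member called higher at that time and was called with any of the 6 libraries left out (adjusted p up to 0.0313). At 48 h SLC7A11 measured 109.8, 162.5 and 121.7 CPM in control and 172.7, 179.7 and 195.3 with Arg. The groups again did not overlap, with control B the nearest to the Arg libraries. The change was 0.47 ± 0.12 with an adjusted p of 0.157, while DESeq2 gave an adjusted p of 0.0093 and the fit without control B gave 0.66 ± 0.07 (adjusted p = 3.41e-07).

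SLC7A8 (LAT2; chr14:23125295-23183674, minus strand), which exchanges neutral amino acids of all sizes, measured 188, 227 and 204 CPM in the 24 h controls and 147, 165 and 173 with Arg. The groups did not overlap (log2 fold change −0.35 ± 0.09, adjusted p = 0.0225), but the call was lost without control C, Arg A or Arg B (adjusted p = 0.0584, 0.0584 and 0.0747). The 48 h controls measured 287, 289 and 270.3 CPM and the Arg libraries 279, 271 and 254, and the change was −0.08 ± 0.06 (adjusted p = 0.637; −0.06 without control B, adjusted p = 0.567). All 48 h values lay above all 24 h values. SLC7A8 rose from 24 to 48 h by 0.46 ± 0.08 on the log2 scale in control (adjusted p = 0.00421) and by 0.73 ± 0.07 with Arg (adjusted p = 6.10e-07).

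SLC7A5 (LAT1; chr16:87830023-87869488, minus strand) and its heavy chain SLC3A2 (chr11:62856102-62888875, plus strand) were the most abundant members. SLC7A5 measured 5822, 5676 and 5225 CPM in the 24 h controls and 5577, 6112 and 5986 with Arg, with overlapping groups (0.08 ± 0.07, adjusted p = 0.567). After 48 h the gene measured 4942, 3787 and 4821 CPM in control and 3674, 4097 and 4504 with Arg. Control B lay among the Arg libraries, and the change of −0.15 ± 0.09 (adjusted p = 0.531) became −0.26 ± 0.06 without it (adjusted p = 0.00379). The pseudogene SLC7A5P1, a near copy of part of SLC7A5, held 407 counts against 1088298.

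SLC3A2 measured 1766, 1589.7 and 1699 CPM in the 24 h controls and 1743, 2035 and 1955 with Arg. Arg replicate A lay among the controls, and the change was 0.18 ± 0.08 (adjusted p = 0.179). At 48 h it measured 1709, 1302 and 1697 CPM in control and 1313, 1340.5 and 1452 with Arg. Control B lay just below the Arg libraries, and controls A and C lay above them. The change was −0.20 ± 0.09 (adjusted p = 0.360) and without control B −0.32 ± 0.05 (adjusted p = 0.000151). The other heavy chain, SLC3A1 (rBAT), which pairs with SLC7A9 in kidney and gut, had 1 count in all 12 libraries, and SLC7A9 had 6.

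SLC36A4, an SLC36 carrier of tryptophan and proline (chr11:93144171-93197964, minus strand), was the remaining member called at 24 h. It measured 44.7, 36.1 and 41.1 CPM in control and 31.7, 25.1 and 25.7 with Arg, without overlap, and its level with Arg was 0.677 of control (log2 fold change −0.56 ± 0.12, adjusted p = 0.00686). Leaving out control A or Arg B raised the adjusted p to 0.0557 and 0.0522. The values at 48 h were 29.1, 21.6 and 35.7 CPM in control and 21.9, 21.4 and 24.6 with Arg. Control B lay inside the Arg range. The change was −0.35 ± 0.15 (adjusted p = 0.345), or −0.52 ± 0.11 without control B (adjusted p = 0.00166). The lysosomal relative SLC36A1 (PAT1) measured 23.8 ± 3.99 CPM in control and 19.6 ± 2.36 with Arg at 24 h (SD, n = 3; adjusted p = 0.227), and SLC36A2 and SLC36A3 had 5 and 6 counts in all.

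SLC38A2 (SNAT2; chr12:46358189-46372867, minus strand), a carrier known to be induced when amino acids are withdrawn, was below control in every Arg library at both times but did not pass the test. At 24 h it measured 1434, 1322 and 1493 CPM in control and 1261, 1147 and 1206 with Arg. The change was −0.23 ± 0.08 (adjusted p = 0.0719). DESeq2 placed it under the threshold (0.0351), and over the 6 fits with a library left out the adjusted p ran from 0.0160 to 0.245. At 48 h the controls measured 1158, 1036 and 1194 CPM and the Arg libraries 904, 953 and 986. The change was −0.26 ± 0.06 (adjusted p = 0.157; DESeq2 0.0359) and −0.31 ± 0.05 without control B (adjusted p = 0.000180).

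The neighbouring gene SLC38A1 (SNAT1), 88.2 kb away on the same chromosome, measured 337 ± 11.4 CPM in control and 333 ± 13.0 with Arg at 24 h (SD, n = 3), with a log2 fold change between −0.16 and 0.13 (95% interval). SLC38A5 (SNAT5; chrX:48458537-48470256, minus strand) measured 227, 175 and 206 CPM in the 24 h controls and 206, 198 and 199 with Arg. It passed no test of Arg at either time (−0.01 ± 0.09 and 0.02 ± 0.07, with adjusted p-values of 0.947 and 0.932). At 48 h it measured 109, 102 and 112 CPM in control and 106, 111 and 112 with Arg. These 48 h levels lay under all 24 h levels, and SLC38A5 showed the smallest p of the transporter genes for time in both treatments (−0.91 ± 0.10, adjusted p = 0.000554 in control; −0.88 ± 0.07, adjusted p = 2.58e-08 with Arg). SLC38A4, a system A carrier, was low in these cells at 0.156 to 2.82 CPM. Its changes with Arg were −1.14 ± 0.37 and −1.51 ± 0.58 at 24 and 48 h (adjusted p-values of 0.0713 and 0.293), and it lies within a long non-coding gene on the opposite strand that drew 381 counts against 289.

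SLC1A5 (ASCT2; chr19:46774883-46788594, minus strand) measured 415, 340.2 and 375 CPM in the 24 h controls and 380.1, 423 and 425 with Arg, with overlapping groups (0.12 ± 0.08, adjusted p = 0.438). Its 48 h values were 317, 324 and 306 CPM in control and 356, 351 and 373 with Arg. These groups did not overlap, and the change of 0.19 ± 0.06 had an adjusted p of 0.218. Without control B it was 0.21 ± 0.06 (adjusted p = 0.0122). SLC1A4 (ASCT1), a carrier of serine, alanine and cysteine, measured 24.4 ± 2.61 CPM in control and 29.1 ± 1.54 with Arg at 24 h, again without overlap (0.26 ± 0.11, adjusted p = 0.175).

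**Figure D3:**
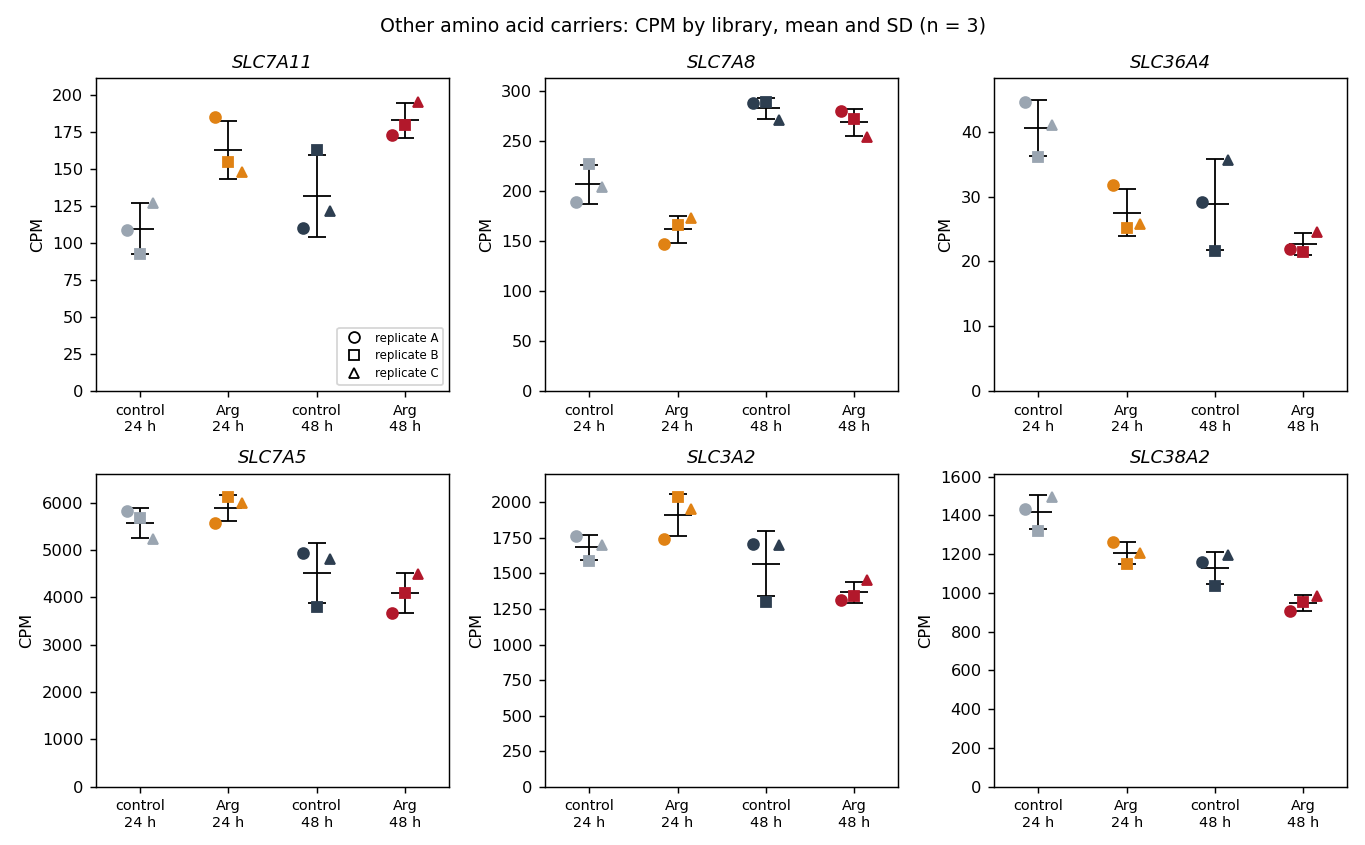
CPM of SLC7A11, SLC7A8, SLC36A4, SLC7A5, SLC3A2 and SLC38A2 in each library (points, shape for the replicate), with the mean and SD of 3 libraries per group. The 24 h Arg libraries lie above the controls for SLC7A11 (148.0 to 184.7 against 92.7 to 127.2 CPM) and below them for SLC7A8, SLC36A4 and SLC38A2.

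Taking the members together at 24 h, 5 of the 24 tested were called with Arg, 1 higher and 4 lower. Over all 14279 genes tested, 2.79% were called higher and 3.84% lower. At an unadjusted p under 0.05, 10 of the 24 members passed, 3 higher and 7 lower, against 10.8% and 11.9% of all genes. The Arg and control libraries did not overlap in 8 of the 24 members, against 26.2% of all genes tested. The count of called members was 3 without control C and 2 without Arg B, where SLC7A2 and SLC7A11 were the calls left. The share of all genes called went from 6.63% to 2.98% and 2.74% in the same fits. The share of mitochondrially encoded counts also differed between these groups, as given above, and its part in these changes was not tested.

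The cationic carriers had a median log2 fold change of −0.25 at 24 h and the 20 other tested members of 0.09, against 0.003 over all genes. The difference of −0.34 had an SD of 0.118 over the Arg libraries. With 4 genes, the cationic median is the mean of the values of SLC7A6 and SLC7A7 and does not show the larger change of SLC7A2. The difference was −0.11 when control B at 24 h was left out. At 48 h the medians were −0.19 and 0.05, and the difference was −0.24 (SD 0.107), −0.37 without control B and −0.13 without control A. The rule puts only 4 genes on the cationic side, of which SLC7A2 and SLC7A6 were called at 24 h and none at 48 h with all libraries.

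**Figure D4:**
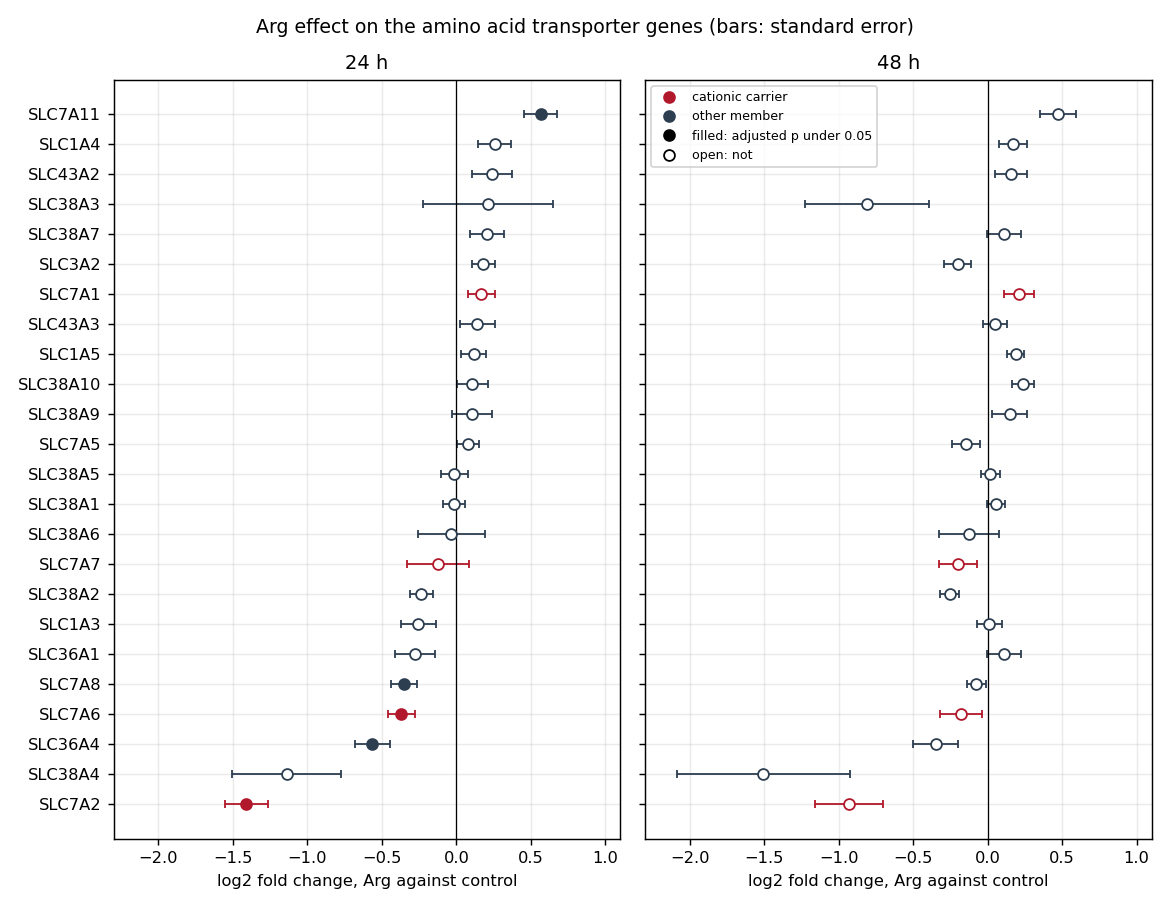
Log2 fold change of Arg against control at 24 h (left) and 48 h (right) for the 24 transporter genes tested at both times, ordered by the 24 h value, with the standard error as bars; red marks the cationic carriers and filled points have an adjusted p under 0.05. SLC7A11 at 0.57 and SLC7A2 at −1.41 are the ends of the 24 h panel, and no point is filled at 48 h.

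At 48 h, 0 of 25 tested members were called by edgeR, where 0.117% of the 14562 genes tested were called in either direction. At an unadjusted p under 0.05 there were 8, with SLC7A11, SLC1A5 and SLC38A10 higher and SLC7A2, SLC38A2, SLC38A4, SLC36A4 and SLC3A2 lower, against 5.94% of all genes higher and 7.49% lower. DESeq2 called 2 members, SLC7A11 and SLC38A2, and 1.27% of all genes. The groups did not overlap in 7 members, against 17.1% of all genes. Without control B, edgeR called 10 of 25 members: SLC7A11, SLC7A1, SLC1A5 and SLC38A10 were higher, and SLC7A2, SLC36A4, SLC7A6, SLC3A2, SLC38A2 and SLC7A5 were lower. In that fit 7.76% of all genes were called higher and 8.17% lower. SLC38A10, an SLC38 member, measured 59.5, 57.0 and 53.0 CPM in the 48 h controls and 65.1, 68.9 and 65.8 with Arg, and its change was 0.24 with control B and 0.24 without it (adjusted p = 0.221 and 0.0291). Leaving out any other library at 48 h gave 0 calls among the members.

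**Figure D5:**
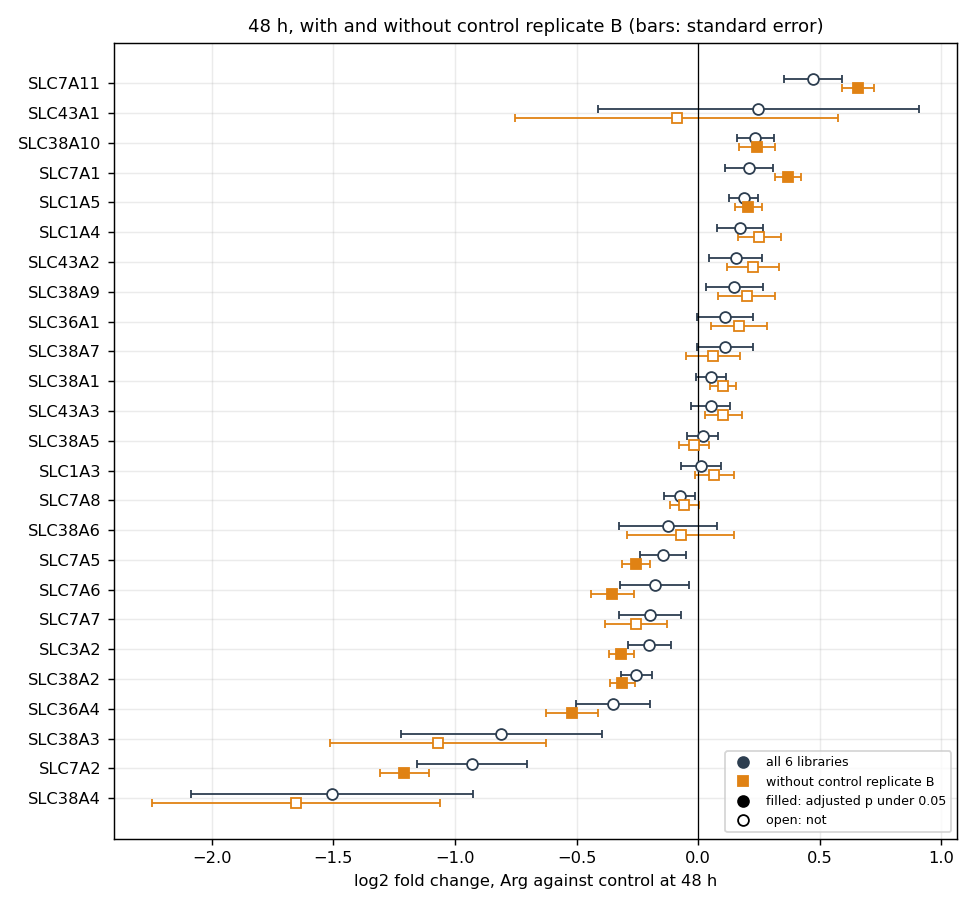
Log2 fold change of Arg against control at 48 h for the 25 tested transporter genes, with all 6 libraries (circles) and without control replicate B (squares); bars are standard errors and filled symbols have an adjusted p under 0.05. None of the circles is filled, and 10 squares are: 4 above 0, led by SLC7A11 at 0.66, and 6 below 0, led by SLC7A2 at −1.21.

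The Arg effect was compared between the times in a model of all 12 libraries. None of the 26 members tested differed at an adjusted p under 0.05 by edgeR or DESeq2, where edgeR called 2 of all 15148 genes (0.0132%) and DESeq2 0.099%. At an unadjusted p under 0.05, edgeR gave 3 members, against 6.87% of all genes. SLC3A2 had the smallest p of these: its change with Arg was lower at 48 h than at 24 h by a log2 difference of −0.38 ± 0.12 (adjusted p = 0.573). Without control B the difference was −0.50 ± 0.10 and passed (adjusted p = 0.0194). The other members of the 3 were SLC7A8 (0.28 ± 0.11) and SLC36A1 (0.39 ± 0.18). For SLC7A2 the difference between the times was 0.48 with a 95% interval from −0.10 to 1.06, and for SLC7A11 it was −0.09 with an interval from −0.44 to 0.26, so the loss of these calls at 48 h is not a shown difference between the times.

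More members differed between the times than with Arg. In control, 12 of 25 were called, 4 higher and 8 lower at 48 h, against 9.90% of all genes higher and 10% lower. With Arg, 14 of 25 were called, 7 in each direction, against 14.3% higher and 14.0% lower. The split depended on the scaling: by library size only, 5 members were higher and 3 lower in control, and 9 were higher and 6 lower with Arg. Over all genes that scaling gave 1845 higher and 1008 lower in control, in place of 1431 and 1451, and 2568 and 1453 with Arg, in place of 2060 and 2012. The neutral exchanger SLC7A8, SLC7A7, SLC1A4 and SLC38A10 were higher at 48 h in both treatments. SLC38A5, SLC38A2, SLC7A5, SLC7A2, SLC1A5 and SLC43A3, an SLC43 member known as a nucleobase carrier, were lower in both. By library size only, SLC7A5, SLC43A3 and SLC1A5 no longer passed in control (adjusted p = 0.0823, 0.0584 and 0.0960) and SLC1A5 no longer passed with Arg (adjusted p = 0.163). SLC7A2 fell by 1.02 ± 0.24 on the log2 scale in control (adjusted p = 0.0142) and by 0.54 ± 0.12 with Arg (adjusted p = 0.00159). SLC3A2 changed by −0.10 ± 0.10 in control (adjusted p = 0.506) and fell by 0.48 ± 0.07 with Arg (adjusted p = 2.40e-05), and SLC7A1 changed by 0.32 ± 0.12 (adjusted p = 0.0875) and rose by 0.36 ± 0.07 (adjusted p = 0.000366). Without control B at 48 h, the changes in control were −0.74 for SLC7A2 (adjusted p = 0.00623), 0.16 for SLC7A1 (adjusted p = 0.264) and 0.02 for SLC3A2 (adjusted p = 0.889). In that fit 10 of 26 members were called in control, and SLC7A5 (−0.19, adjusted p = 0.0742) and SLC36A4 (−0.32, adjusted p = 0.0767) no longer passed. The count was 3 without control A or control C at 24 h. The share of all genes called in control was 19.9%, and it was 16.4% without control B at 48 h, 5.59% without control A at 24 h and 6.7% without control C at 24 h. These comparisons share libraries with those of Arg against control. In the same span the summed fibroblast markers went from between 29.6 and 53.4 CPM at 24 h to between 71.9 and 101.9 CPM at 48 h, and their part in the time differences was not tested.

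Of 20 further amino acid carriers outside these families, 19 were found in the table and 14 were tested at 24 h. Of these, 0 were higher and 2 were lower with Arg, against 2.79% and 3.84% of all genes. SLC6A15, a sodium-coupled carrier of branched-chain amino acids and proline, changed by −0.49 ± 0.11 (adjusted p = 0.0125), and SLC25A22, a mitochondrial glutamate carrier, by −0.48 ± 0.10 (adjusted p = 0.0084). At 48 h edgeR called 0 of 14, with 0 at an unadjusted p under 0.05. Without control B both of these carriers were lower (−0.43, adjusted p = 0.00136, and −0.40, adjusted p = 0.00195). Of all genes, 0.117% were called at 48 h with all libraries and 15.9% without control B. Of 15 amino acid response genes, 1 rose and 1 fell at 24 h, against the same 2.79% and 3.84% of all genes. The secreted glycoprotein gene STC2 rose by 0.62 ± 0.11 on the log2 scale (adjusted p = 0.00203) and the stress factor ATF3 fell by 1.39 ± 0.20 (adjusted p = 0.000464). Without the adjustment, 5 of the response genes were higher and 2 lower at 24 h (p under 0.05), against 10.8% and 11.9% of all genes. ATF4 itself changed by 0.10 ± 0.07 at 24 h and −0.02 ± 0.06 at 48 h, with adjusted p-values of 0.448 and 0.897. At 48 h edgeR called 0 of the 15 response genes. At an unadjusted p under 0.05, 4 passed, 1 higher and 3 lower, against 5.94% and 7.49% of all genes. Without control B, 3 of the 15 were called, against 15.9% of all genes. The growth-inhibitory stress gene DDIT4 (−0.84, adjusted p = 3.35e-10) and the transcription factor CEBPB (−0.27, adjusted p = 0.00495) were lower. STC2 (0.26, adjusted p = 0.0150) was higher. Of the 6 transporter genes with a CARE core printed above, 0 were called with Arg at 24 h or 48 h with all libraries. At 48 h without control B, where 15.9% of all genes were called, SLC7A1 and SLC1A5 were called higher and SLC3A2 lower.

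The remaining 14 members passed no filter. SLC38A11 and SLC7A13 had 0 counts in every library, which allows up to 3 counts, or 0.158 to 0.181 CPM per library, for counting error only. SLC1A1 (EAAC1, a glutamate carrier) had 40 counts over the 12 libraries, and the other 11 had between 1 and 20. Among these were the CAT family members SLC7A3 with 3 counts, SLC7A4 with 12 and SLC7A14 with 2, so SLC7A1 and SLC7A2 were the CAT genes with measurable levels at this depth. Expression of these 14 was not detectable or too low to compare.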

How the data were processed

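Poly(A) RNA from TIGK cells was sequenced by the study as 150 bp paired-end reads. Per the labels and the methods, the authors used fastp to filter the reads, STAR to map them (GRCh38/hg38) and featureCounts to obtain gene counts; versions, annotation release and strand setting are not given in the sources used here. The deposited values are raw counts of 58735 genes, with exonic lengths.

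Libraries were grouped by their labels. Pairs of groups were compared with edgeR 4.0.16 in R 4.3.3 (TMM, filterByExpr, quasi-likelihood test, Benjamini–Hochberg over all genes tested, called at adjusted p under 0.05), tested on simulated data. The SE was the log2 fold change divided by the square root of F, and 95% intervals used 1.96 SE. These intervals are somewhat narrower than the test implies. For SLC7A1 with Arg at 48 h the interval is 0.015 to 0.404, beside an unadjusted p of 0.0562 from the quasi-likelihood test. CPM were TMM-scaled over 12 libraries. Described library by library were the cationic carriers, members called with Arg, heavy chains and the 6 highest members. From other lists, at most 4 called genes were named. SLC38A10, SLC1A4, SLC36A1, SLC38A1, SLC38A4, ATF4, DDIT4, CEBPB and the fibroblast markers given singly were picked after their values were seen. Members and lists were chosen with earlier results of these data known. Alternatives were DESeq2 1.42.0, other scalings and filters, all 12 libraries in 1 model, a replicate block, and each library left out. Permuting 3 against 3 libraries exactly gives p = 0.1 at best, so no such test was run.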

Additional observations from a re-analysis of the deposited data

How the results depend on the processing

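The number of transporter genes called with Arg at 24 h was 5 and became 10 at an unadjusted p under 0.05, against 10.8% of all genes higher and 11.9% lower. It ranged from 2 to 7 with a library left out. The 2 came without Arg B and the 7 without control B. Of all genes, 2.74% and 10.4% were called in these fits, against 6.63% with all libraries. At 48 h the number was 0, where 0.117% of all genes were called. It became 2 with DESeq2, 2 with the replicate block and 4 without the filter on low counts. In these 3 fits 1.27%, 1.26% and 2.1% of all genes were called. At an unadjusted p the number was 8, against 5.94% of all genes higher and 7.49% lower. Leaving out a library gave 0 to 10, with 10 only without control B, where 15.9% of all genes were called. For time in control it was 12, and 3 to 12 with a library left out, where 5.59% to 22.2% of all genes were called. For the difference between the times it was 0, 1 without the filter, 3 at an unadjusted p, and 0 to 1 with a library left out. The 1 came without control B at 48 h. Of all genes, 0.0132% were called with all libraries, 0.295% without the filter and 0.297% without that control, and 6.87% had an unadjusted p under 0.05. The difference between the cationic and the other medians ranged from −0.388 to −0.106 at 24 h and from −0.367 to −0.127 at 48 h with a library left out. The cationic shares without the division by length were 4.91%, 4.67%, 6.40% and 7.43% for control and Arg at 24 h and control and Arg at 48 h. The sign turned for SLC7A7 at 24 h (−0.257 to 0.101 with a library left out) and SLC38A5 at 24 h (−0.112 to 0.0752) and 48 h (−0.0169 to 0.0443), none of which was called. The cause was not tested. Of the other values of single genes under the alternatives, 276 kept direction and side of the threshold, 23 newly passed it and 9 no longer did. SLC7A3 and SLC7A9 passed no filter, so adding them to the cationic side was not run.

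The letters A, B and C were used as a block as an alternative. The correlation of same-letter deviations ran from −0.118 to 0.0422 for Arg at 24 h and from −0.0423 to 0.0755 at 48 h, and 0 and 3 of 6 libraries correlated best with their own letter. Between the times it ran from 0.0771 to 0.238 in control (4 of 6 best) and from −0.0488 to −0.0352 with Arg (0 of 6). It was highest in control between the times, and a pairing of those libraries was not tested further. What the letters share is not stated in the sources used here, so the main fits used no block. With the block, the 2 members called at 48 h were SLC7A2 (−0.87, adjusted p = 0.00485) and SLC7A11 (0.49, adjusted p = 0.0113), and the number at 24 h stayed at 5. For time in control the block gave 14 called members in place of 12 (28% of all genes in place of 19.9%), with SLC7A1 (adjusted p = 0.00205) and SLC43A2 (adjusted p = 0.0234) newly passing.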
